A study of Mus musculus with 4 samples.

Results

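Iron handling genes were followed in mouse heart through 10 genes of iron uptake, export, storage and control, namely Tfrc, Fth1, Ftl1, Slc40a1, Slc11a2, Hamp, Ireb2, Aco1, Hfe and Heph. They were represented by every probe set that the platform annotation assigned to a single one of these symbols. Of the 10 genes, 9 had at least 1 such probe set, out of 18193 genes tested on the arrays, and together they had 23. The 3 probe sets of Ftl1, the ferritin light chain, were annotated to several genes, so Ftl1 was not analysed here. Where a gene had several, the one of highest mean expression across the arrays gave its main value. The group was assembled around Tfrc, whose knock-in difference and uneven probe sets had already been seen, so for Tfrc the difference and the spread are descriptions and carry no test.

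The study asked how a knock-in of Ser9Ala in GSK-3beta changes gene expression in the heart at baseline. This protein kinase is switched off by phosphorylation of serine 9, and alanine at that position cannot be phosphorylated. There were 2 arrays of hearts from GSK-3beta S9A mice at 3.5 months and 2 of hearts from wild-type mice at 3.6 months, with strain C57B6 and no treatment in either group. The labels do not say whether samples were single or pooled animals, nor give sex or time of day, and p-values therefore measure only how these samples vary, which may be technical. The median log2 value of an array was between 5.97 and 6.04, and the number of arrays limits the precision. All 10 cardiomyocyte markers, Myh6 and Tnnt2 among them, were above the median of all genes on all 4 arrays, with log2 values from 12.95 to 14.91.

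Cells take up iron when transferrin binds the transferrin receptor at the surface and the complex is carried into endosomes, from which the transporter DMT1 releases iron into the cytosol. Iron is stored in ferritin, leaves through ferroportin, and the liver hormone hepcidin brings about the loss of ferroportin from the membrane. When iron is scarce, the iron regulatory proteins bind hairpins in messenger RNAs, which stabilises the Tfrc transcript and blocks the translation of ferritin, and heart muscle depends on this system because its mitochondria use much iron.

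The promoters of Tfrc and Hamp are shown because only their main probe sets were higher in both knock-in arrays than in both wild-type arrays. RefSeq windows of GRCm38.p6, running from 250 bases before to 50 after an annotated start, were at hand for 7 of the 10 members, 9 windows in all, and not for Slc40a1, Slc11a2 and Heph. The motifs searched on both strands were ACGTG, the core of the hypoxia response element, GGCGCC, the core of the BMP response element of hepcidin promoters, and TTCNNNGAA, which STAT factors bind. The letters ACGTG were found in 19.6%, GGCGCC in 11.9% and TTCNNNGAA in 8.3% of all 32851 windows. The first 2 sequences come from the Tfrc window of the first annotated start, with GGCGCC in capitals in the upstream stretch (chr16:32608646-32608895, plus strand) and ACGTG in capitals in the stretch across the start (chr16:32608882-32608911, plus strand). The last lies upstream of Hamp (chr7:30944030-30944279, minus strand) with GGCGCC and the STAT motif in capitals.
Tfrc upstream: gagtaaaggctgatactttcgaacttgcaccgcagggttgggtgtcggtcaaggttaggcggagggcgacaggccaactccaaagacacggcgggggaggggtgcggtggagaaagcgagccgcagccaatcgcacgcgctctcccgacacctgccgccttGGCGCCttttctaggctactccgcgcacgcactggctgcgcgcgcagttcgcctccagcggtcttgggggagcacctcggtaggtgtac
Tfrc start: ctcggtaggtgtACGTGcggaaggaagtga
Hamp upstream: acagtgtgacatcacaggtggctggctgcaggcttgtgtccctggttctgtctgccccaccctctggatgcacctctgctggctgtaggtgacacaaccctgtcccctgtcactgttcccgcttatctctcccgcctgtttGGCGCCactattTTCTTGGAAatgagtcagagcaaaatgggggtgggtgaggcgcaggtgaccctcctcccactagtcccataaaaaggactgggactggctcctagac
Counted from the annotated start, GGCGCC began at -89 in Tfrc and at -109 in Hamp, and the STAT motif of Hamp began at -97. The ACGTG of Tfrc began at -2, and the same letters lie at -228 in the window of the second annotated start. No other member's window held any of these motifs, which says only that the letters are not in these windows.

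Tfrc, the receptor that brings transferrin-bound iron into the cell, was higher in knock-in hearts on its main probe set. That probe set (1452661_at) read 10.30 and 9.69 in the wild-type arrays and 11.09 and 11.68 in the knock-in arrays, all on the log2 scale. Both knock-in arrays lay above both wild-type arrays. The wild-type mean was 9.996 ± 0.44 and the knock-in mean 11.38 ± 0.42 (SD, n = 2), a log2 difference of 1.39, or 2.62-fold. Over all genes, 18 were higher in knock-in hearts by at least as much, Tfrc included.

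The other 5 Tfrc probe sets gave a different picture, in which knock-in 2 alone stood clearly apart. Probe set 1422966_a_at read 7.78 and 7.30 in wild-type and 7.40 and 9.06 in knock-in arrays, so that knock-in 1 lay between the wild-type arrays. Probe set 1422967_a_at read 4.83 and 4.85 in wild-type and 4.88 and 6.10 in knock-in arrays. Knock-in 1 was only 0.04 above the wild-type mean there, compared with 1.26 for knock-in 2. The array also carries 3 Tfrc control probe sets, designed along the transcript to follow RNA quality. The 3′ control read 5.61 and 5.29 in wild-type and 5.54 and 6.78 in knock-in arrays. The middle control read 3.74 and 3.60, then 3.71 and 4.25. The 5′ control read 3.68 and 3.56, then 3.79 and 4.31. In all 6 Tfrc probe sets knock-in 2 was the highest array, whereas knock-in 1 exceeded both wild-type arrays in 3 of the 6.

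**Figure D1:**
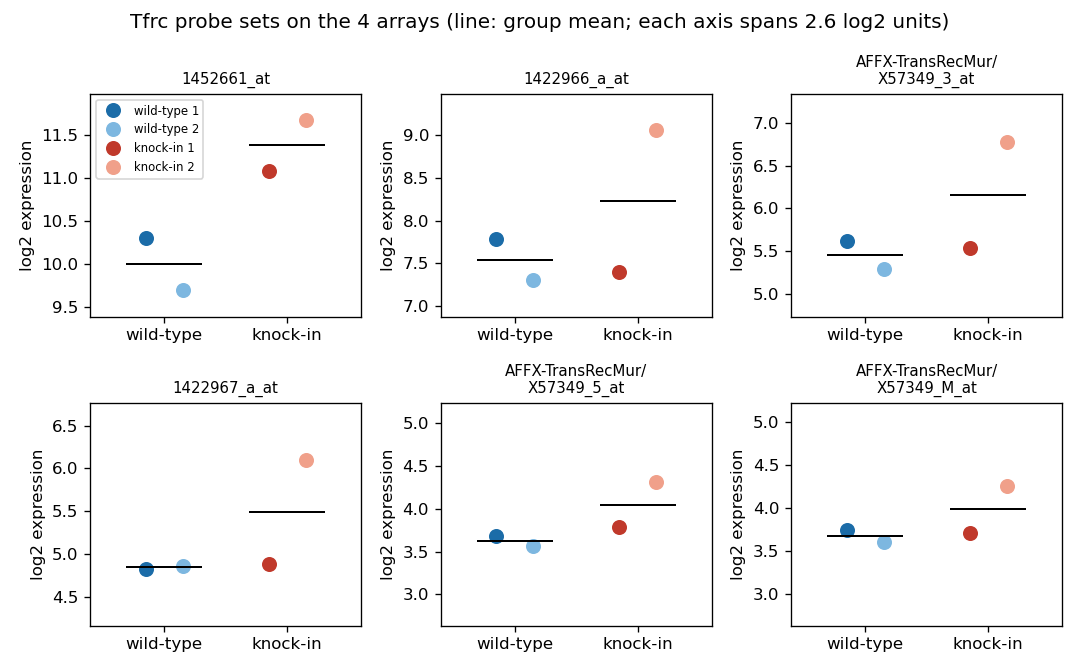
Log2 expression of the 6 Tfrc probe sets on the 2 wild-type and 2 knock-in arrays, with a line at each group mean and an equal span of 2.6 log2 units on every vertical axis. Knock-in 1 reads 11.09 on the main probe set, above both wild-type arrays, but 7.40 on 1422966_a_at, between them.

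The group differences of these 5 probe sets ran from 0.31 for the middle control to 0.71 for the 3′ control, compared with 1.39 on the main probe set. Knock-in SDs were 1.17 for 1422966_a_at, 0.876 for the 3′ control and 0.858 for 1422967_a_at. Among the 4717 probe sets with a mean within 0.5 of 1422966_a_at, 0.0636% had a knock-in SD as large. For the main probe set, 1.14% of 1669 such probe sets had a knock-in SD as large and 0.599% a wild-type SD as large. Its spread was thus wide in both groups. Tfrc was chosen with the spread of its probe sets known, so these shares are only a description. The files do not give the part of the transcript that each probe set other than the controls reads.

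Values that bear on RNA and hybridisation were read beside the Tfrc probe sets. The 3′ control minus the 5′ control of Tfrc was 1.94 and 1.73 in wild-type and 1.75 and 2.47 in knock-in arrays. The same difference lay between 0.283 and 0.447 for Actb and between 0.540 and 0.774 for Gapdh on the 4 arrays, where knock-in 2 had the lowest value of both genes, and between 1.33 and 1.57 for Pcx, where wild-type 1 had the lowest. The median of 9 hybridisation spike probe sets was 9.12 and 8.55 in wild-type and 8.77 and 9.39 in knock-in arrays. From low to high, the spikes had the array order wild-type 2, knock-in 1, wild-type 1, knock-in 2. So did 3 of the 6 Tfrc probe sets, the 3′ and middle controls among them, beside 4.44% of all probe sets other than controls. The order was picked after the values had been seen. Probe sets of 1 gene are not replicates, so the count is only a description. The 18S ribosomal RNA probe sets, from 5.09 to 8.59 in wild-type and from 6.42 to 10.06 in knock-in arrays, were each higher in both knock-in arrays, and for 2 of the 3 probe sets knock-in 1 was the highest. The part of these quantities in the Tfrc values was not tested.

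Markers of liver, fat, red cells and lymphocytes were also read beside Tfrc. Of 15 hepatocyte markers listed, 14 were measured and all had a positive difference, beside 50.2% of all genes. Of these, 12 were higher at an unadjusted limma p under 0.05, beside 4.4% of all genes, and none passed over all genes. Their linear values summed to between 865 and 1210.1 in wild-type and between 2148 and 3454 in knock-in arrays. Alb, serum albumin, read 7.01 and 5.54 in wild-type and 8.58 and 9.66 in knock-in arrays. Of 6 adipocyte markers, 4 were measured, all with a positive difference, and their sums ran from 242 to 261 in wild-type and from 499 to 553 in knock-in arrays. The largest difference was that of Car3, a carbonic anhydrase that is not confined to fat (2.23, adjusted p = 0.0724, limma). Car3 read 6.23 and 5.65 in wild-type and 8.07 and 8.26 in knock-in arrays, and gave most of the difference in these sums. Adipoq differed by 1.13 (adjusted p = 0.237, limma), whereas Lep (0.03) and Retn (0.007) barely differed and overlapped between the groups. All 7 measured lymphocyte markers had a negative difference, with sums from 658 to 712 in wild-type and from 603 to 641 in knock-in arrays. Of 15 erythrocyte markers, 10 were measured, 7 with a positive and 3 with a negative difference, and their sums ran from 1727 to 1899 in wild-type and from 1825 to 1974 in knock-in arrays. Hba-a2, an alpha-globin gene with a near-identical copy, read 6.47 and 6.48 in wild-type and 6.38 and 7.56 in knock-in arrays. There knock-in 2 alone was high. The dim probe set of Hba-a1, also an alpha-globin gene, read 4.19 and 4.42, then 4.44 and 4.11, with knock-in 2 the lowest. The part of any of these cell types in the Tfrc values was not tested, and in these bulk samples fewer cells of a type and less RNA per cell cannot be told apart.

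The genes whose pattern over the 4 arrays was most like the main Tfrc probe set were Cyp2e1, Ambp, Rbp4, Apoa1 and Ttr. Likeness was the Euclidean distance between log2 values, each taken minus the gene's own mean, and ran from 0.0942 for Cyp2e1 to 0.279 for Ttr. Cyp2e1 read 7.44 and 6.75 in wild-type and 8.17 and 8.86 in knock-in arrays. All 5 are abundant in liver, and 4 of them (Cyp2e1, Ambp, Apoa1 and Ttr) belong to the hepatocyte list above. With 4 arrays this is a description of order and size.

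**Figure D2:**
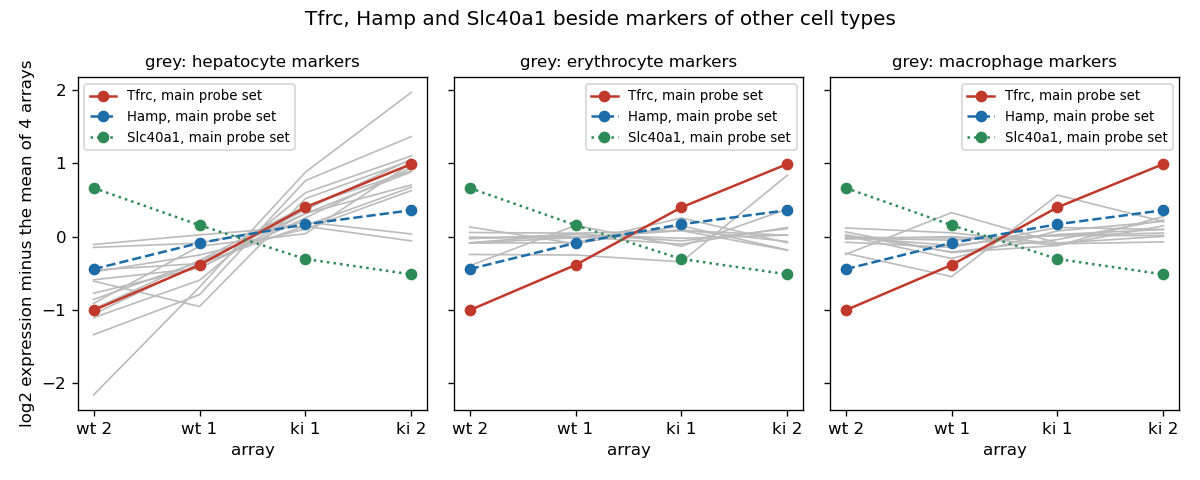
Log2 expression minus the mean of the 4 arrays for the main probe sets of Tfrc, Hamp and Slc40a1, drawn over hepatocyte, erythrocyte and macrophage markers in grey (wt, wild-type; ki, knock-in). Tfrc is lowest in wild-type 2 and highest in knock-in 2, as are most hepatocyte markers, while most erythrocyte and macrophage markers stay near 0.

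Of the 8 measured members other than Tfrc, none passed the test over all genes (limma, Benjamini-Hochberg adjusted p under 0.05), as did only 0.0055% of all genes. Tfrc entered the same fit and did not pass either. An unadjusted limma p under 0.05 was found for 2 of the 8 and for 7.39% of all genes. These were Hamp, higher like 4.4% of all genes, and Slc40a1, lower like 2.99%. The arrays of the groups did not overlap for 5 of the 8 and for 36.5% of all genes. Hamp was higher without overlap, beside 19.6% of all genes, and Slc40a1, Hfe, Ireb2 and Heph were lower, beside 17.0%. The median difference of the 8 was -0.05, beside 0.00 for all genes.

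**Figure D3:**
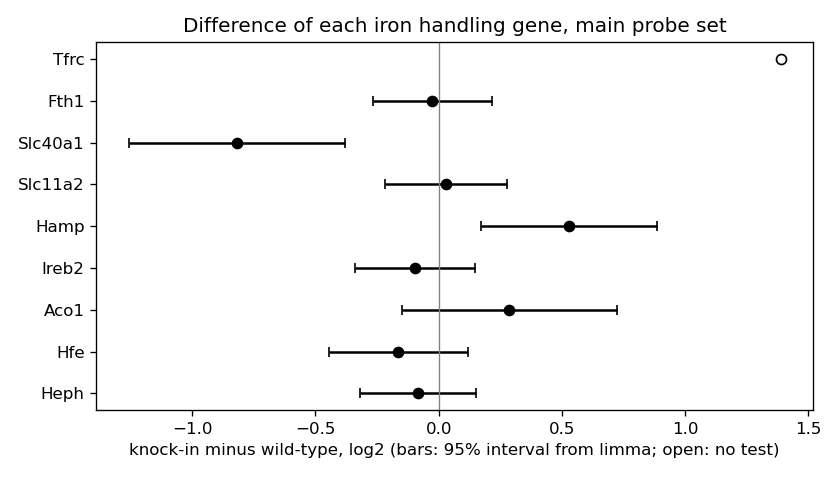
Knock-in minus wild-type log2 difference of the 9 measured genes on their main probe sets, with 95% intervals from limma for all but Tfrc, drawn as an open point because it was chosen for its difference. The unadjusted intervals of Slc40a1 and Hamp exclude 0, and those of the 6 others tested span it.

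Slc11a2, which encodes the endosomal iron transporter DMT1, had close values in both groups on all of its 4 probe sets. The main one (1417584_at) read 8.01 and 7.92 in wild-type and 7.94 and 8.05 in knock-in arrays. The groups overlapped, the difference was 0.03, and its 95% interval ran from -0.22 to 0.28 (adjusted p = 0.985, limma). The 3 others differed by between -0.02 and 0.08. Some of its transcripts carry an iron-responsive hairpin like that of Tfrc, and the files do not say which of them a probe set reads.

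Slc40a1, ferroportin, the exporter of iron from cells, had lower values in knock-in hearts on both of its probe sets. The main one (1417061_at) read 9.53 and 10.03 in wild-type and 9.07 and 8.86 in knock-in arrays. Both knock-in arrays lay below both wild-type arrays, and wild-type 2 was the highest. The difference was -0.82, a 1.76-fold lower level, with a 95% interval from -1.26 to -0.38 (unadjusted p = 0.00357 and adjusted p = 0.354, limma). The second probe set (1448566_at) read 8.61 and 9.08 in wild-type and 8.30 and 8.29 in knock-in arrays, again without overlap, and differed by -0.55. Only 26 of all genes were lower by at least as much as the main probe set, Slc40a1 included. Leaving out wild-type 2 gave a difference of -0.57, and leaving out wild-type 1 gave -1.07.

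Macrophages are rich in ferroportin, so their markers were read beside it. All 11 macrophage markers were measured. Beside 50.2% of all genes, 9 of these markers had a positive difference, and 2 had a negative one. Their linear values summed to between 8865 and 9533 in wild-type and between 9541 and 10089 in knock-in arrays. Of the wild-type arrays, wild-type 2 had the higher sum and the higher Slc40a1 value. Of the knock-in arrays, knock-in 2 had the higher sum but the lower Slc40a1 value. The part of macrophages in the Slc40a1 values was not tested. Vsig4, a receptor of resident macrophages, had the smallest p of the list, at 5.42 and 5.74 in wild-type and 6.53 and 6.17 in knock-in arrays (difference 0.77, adjusted p = 0.353, limma).

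Heph, the copper-bearing oxidase hephaestin that works with ferroportin in the gut, was read by a single dim probe set. It gave 4.04 and 3.96 in wild-type and 3.90 and 3.93 in knock-in arrays. The knock-in values were lower without overlap, but the difference was only -0.08 with an interval from -0.32 to 0.15 (adjusted p = 0.912, limma). No detection call came with the values, so a reading at this level does not show that the transcript was present.

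Hamp, the hormone hepcidin, had higher values in knock-in hearts on both probe sets. The main one (1419197_x_at) read 7.18 and 6.82 in wild-type and 7.43 and 7.62 in knock-in arrays. Both knock-in arrays lay above both wild-type arrays, and the difference was 0.53 with an interval from 0.17 to 0.89 (unadjusted p = 0.0108 and adjusted p = 0.462, limma). The other probe set (1419196_at) read 6.84 and 6.71, then 7.26 and 7.46, a difference of 0.58. Hepcidin is made mainly in the liver, and the hepatocyte sums given above were higher in the same arrays, in the same order of arrays as Hamp for 11 of the 14 markers, an order found in 6.12% of all genes. The part of liver transcripts in the Hamp values was not tested, and the near-identical gene Hamp2 may contribute to these probe sets. The difference was 0.35 without wild-type 2 (unadjusted p = 0.0518, limma) and 0.43 without knock-in 2 (unadjusted p = 0.0649, limma).

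Hfe, a membrane protein that binds the transferrin receptor and takes part in hepcidin control, had lower values in knock-in hearts to an extent that depended on the probe set. The main one (1422645_at) read 9.69 and 9.93 in wild-type and 9.60 and 9.69 in knock-in arrays. The highest knock-in value, 9.685, was just below the lowest wild-type value, 9.691. The difference was -0.16 with an interval from -0.45 to 0.12 (adjusted p = 0.824, limma). The second (1450702_at) read 8.79 and 9.43 in wild-type and 8.56 and 8.46 in knock-in arrays, a difference of -0.60 with a wild-type SD of 0.450. On the main probe set, leaving out wild-type 2 gave a difference of -0.05, and leaving out wild-type 1 gave -0.28. When the probe sets were averaged, Hfe differed by -0.38, with an unadjusted p of 0.0328 and an adjusted p of 0.659 (limma).

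Fth1, the ferritin heavy chain that oxidises iron for storage, was among the most even members. Its main probe set (1427021_s_at) read 14.34 and 14.32 in wild-type and 14.25 and 14.36 in knock-in arrays. The groups overlapped, and the difference was -0.03 with an interval from -0.27 to 0.22 (adjusted p = 0.989, limma). The other probe set (1448771_a_at) read 13.38 and 13.44, then 13.45 and 13.52, a difference of 0.07 in the other direction. Values this high are near the top of the array's range, and ferritin is controlled largely at translation, which these arrays do not read.

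The iron regulatory proteins are encoded by Aco1, which doubles as the cytosolic aconitase, and by Ireb2. Aco1 read 9.11 and 9.60 in wild-type and 9.77 and 9.51 in knock-in arrays on its main probe set (1456728_x_at). Wild-type 2 lay above knock-in 2, so the groups overlapped, and the difference was 0.29 with an interval from -0.15 to 0.72 (adjusted p = 0.794, limma). A second probe set (1423644_at) read 8.99 and 9.17, then 9.40 and 9.22, a difference of 0.23 without overlap. The third, a dim one (1447080_at), differed by -0.12. For Aco1, leaving out wild-type 2 gave a difference of 0.53, and leaving out wild-type 1 gave 0.05. Ireb2 read 8.78 and 8.89 in wild-type and 8.77 and 8.70 in knock-in arrays, where wild-type 1 and knock-in 1 were nearly equal. Its difference was -0.10 with an interval from -0.34 to 0.15 (adjusted p = 0.900, limma).

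**Figure D4:**
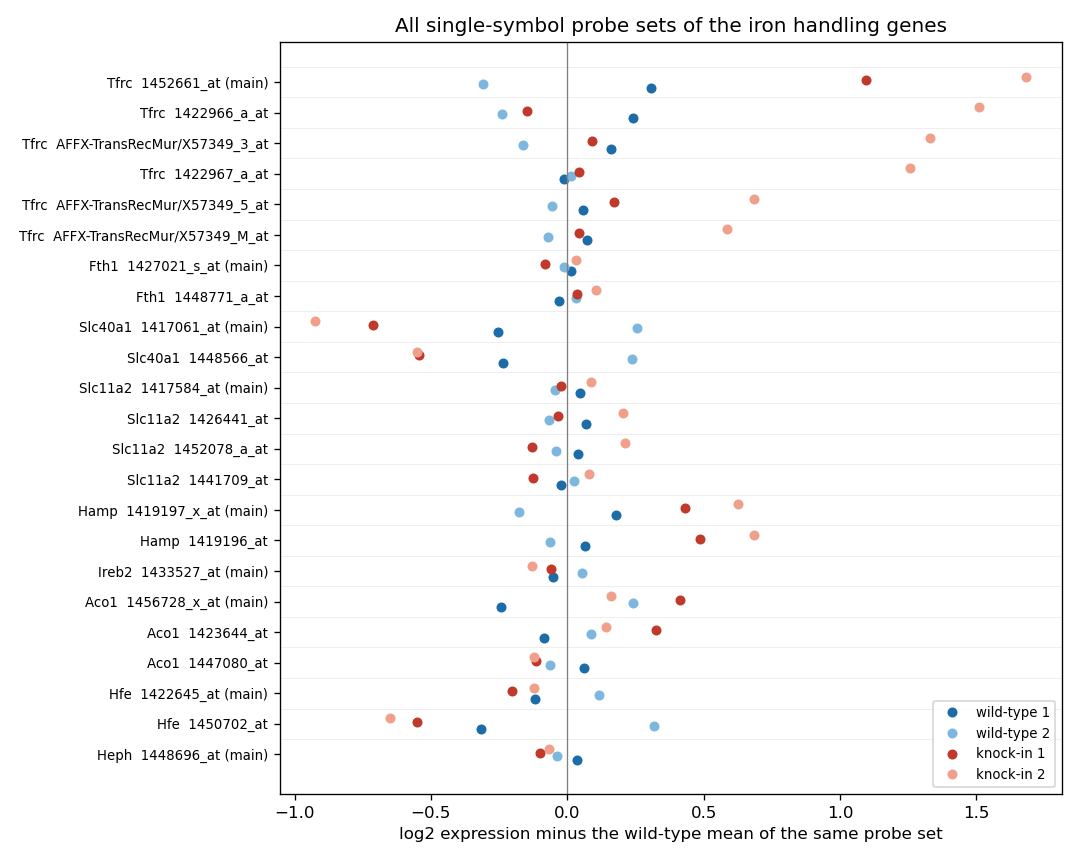
Log2 expression on each array minus the wild-type mean of the same probe set, for all 23 single-symbol probe sets of the 9 genes. The 6 Tfrc probe sets extend to the right in knock-in 2, and both Slc40a1 probe sets lie to the left in both knock-in arrays.

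The rest of the pathway was read through 4 lists grouped by function, in which 86 of 96 genes were measured, and no gene passed over all genes. Of the 86, 6 were higher and 3 lower at an unadjusted limma p under 0.05, 10.5% in all beside 7.39% of all genes. Of the 86, 58 had a positive difference (67.4%), beside 50.2% of all genes, and the median difference was 0.08, beside 0.00 for all genes.

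Among the 29 measured genes of uptake, storage and export, 2 were higher and 1 lower at that p. This was 10.3% in all, beside 7.39% of all genes. Hpx, hemopexin, the plasma carrier of haem, read 5.33 and 4.57 in wild-type and 6.71 and 7.45 in knock-in arrays, a difference of 2.13 (adjusted p = 0.226, limma). Hp, haptoglobin, the plasma carrier of haemoglobin, differed by 0.46 (adjusted p = 0.355, limma). Both are secreted by the liver and differed in the same direction as the hepatocyte markers above, whose part was not tested. Lcn2, lipocalin 2, which binds bacterial iron carriers, differed by -0.32 (adjusted p = 0.609, limma), with 6.93 and 7.17 in wild-type and 6.78 and 6.68 in knock-in arrays.

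Of the 18 measured genes of hormone control, Stat3 was the only one at that p (5.56%, beside 7.39% of all genes). Stat3, the factor through which inflammatory cytokines raise hepcidin, read 11.54 and 11.65 in wild-type and 11.03 and 11.20 in knock-in arrays, a difference of -0.48 (adjusted p = 0.360, limma). Bmp6, the signal that raises hepcidin when iron is plentiful, differed by 0.25, and its receptor Bmpr1a by -0.24 (adjusted p = 0.713 and 0.714, limma).

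Haem genes held 3 higher and 1 lower at that p among 19 measured. This was 21.1% in all, beside 7.39% of all genes. Alas1, the first and rate-limiting enzyme of haem synthesis outside red cells, read 11.57 and 11.31 in wild-type and 11.85 and 11.99 in knock-in arrays, a difference of 0.48. Alad, the next enzyme, read 9.46 and 9.36, then 9.74 and 9.87, a difference of 0.40 (adjusted p = 0.430 for both, limma). Cpox, a later enzyme of the same pathway, had lower values, with 9.32 and 9.53 in wild-type and 8.84 and 8.96 in knock-in arrays, a difference of -0.53 (adjusted p = 0.354, limma). Abcg2, a transporter that can carry porphyrins out of cells, differed by 0.29 (adjusted p = 0.644, limma). The groups did not overlap for any of these 4, beside 36.5% of all genes. These genes were named for their small p, so the lack of overlap is no further support. Alas2, the red cell form of the first enzyme, is also in the erythrocyte list and overlapped between the groups, at 9.02 and 8.47 in wild-type and 8.74 and 9.25 in knock-in arrays.

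Of the 20 measured genes of mitochondrial iron and iron-sulphur clusters, only Cisd2 was at that p (5.0%, beside 7.39% of all genes). Cisd2 is an iron-sulphur protein of the outer mitochondrial and endoplasmic reticulum membranes. It read 10.21 and 10.37 in wild-type and 10.72 and 10.64 in knock-in arrays, a difference of 0.39 (adjusted p = 0.454, limma). The cluster assembly factors Glrx5 and Bola3 differed by 0.17 each (adjusted p = 0.758 and 0.773, limma). In this list 14 genes had a positive difference and 6 a negative. Without overlap, 11 were higher and 0 lower, beside 19.6% and 17.0% of all genes. Of the 29 uptake, storage and export genes, 6 were higher and 2 lower without overlap, and of all 86 genes 29 and 6. All 10 cardiomyocyte markers above also had a positive difference, 5 of them higher without overlap and 0 lower.

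**Figure D5:**
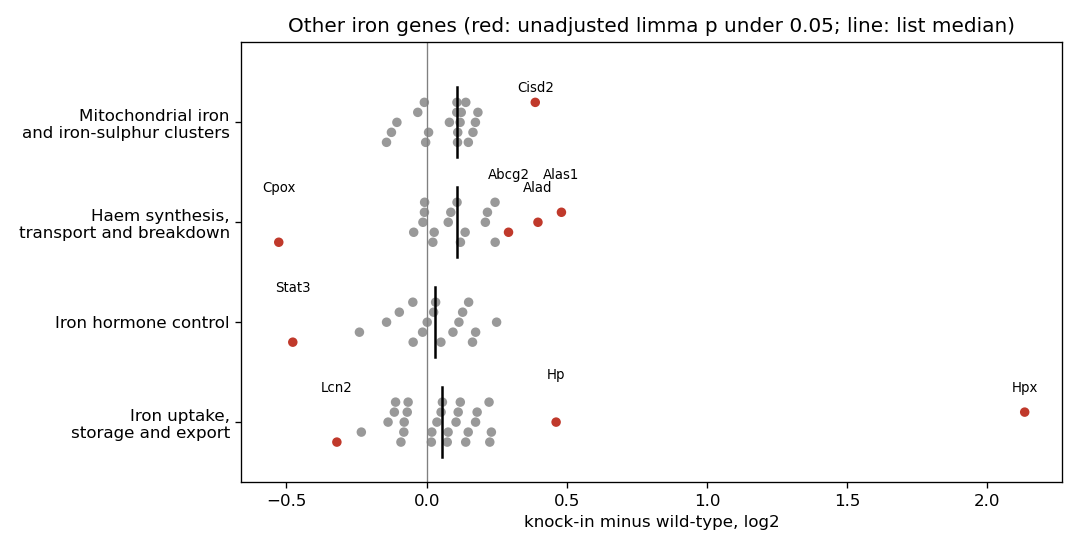
Knock-in minus wild-type log2 difference of each of the 86 measured genes in the 4 iron lists, with a line at each list median and genes of unadjusted limma p under 0.05 in red and named. Hpx at 2.13 stands far from the others, and the list medians lie between 0.03 and 0.11.

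Tfrc lies on chromosome 16, as does Gsk3b, the gene that carries the knock-in, with 56 tested genes between them in the RefSeq order. Of the 5 tested genes on each side of Tfrc, 3 were at an unadjusted limma p under 0.05, beside 7.39% of all genes. They were Tctex1d2 (difference 0.29), Pcyt1a, an enzyme of phosphatidylcholine synthesis (0.27), and the mucin Muc4 (-0.30). None passed over all genes, and the 10 differences ran from -0.30 to 0.29 with a median of -0.01. Tnk2, next to Tfrc on one side, read 9.26 and 9.15 in wild-type and 9.08 and 8.76 in knock-in arrays, and Zdhhc19 on the other side overlapped between the groups. Gsk3b itself differed by 0.18.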

How the data were processed

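The deposited values are log2 expression per probe set. The submitters' processing notes name RMA and Affymetrix Expression Console, and per the labels the wild-type arrays were normalized only with the knock-in arrays. The annotation gave 1 symbol for 34945 of 45101 probe sets, of which 34741 matched RefSeq by Entrez identifier. Control probe sets (64), those with several symbols (932) and those with none (9160) were left out of the gene test, so the 3 Tfrc controls are shown as values only. Differences were fitted in R 4.3.3 with limma 3.58.1 (lmFit, eBayes), two-sided, over 18193 genes at an adjusted p of 0.05, with no filter on dim probe sets. On simulated data with 18193 genes, 83.6% of 2-fold and 99.8% of 4-fold changes were recovered, with 9.2 false calls per run. Those data held 200 planted changes per run and independent noise drawn from the fitted variance prior. In the real data Alb (7.18-fold, adjusted p = 0.281, limma) and Hpx (4.39-fold, adjusted p = 0.226, limma) did not pass. The simulated shares are therefore not the power of the real fit.

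The members, the 4 iron lists, the marker lists and the alternatives were chosen with earlier results of these data known. Named genes were all members, the 3 genes of smallest p and those of unadjusted p under 0.05 in each iron list, the 5 genes nearest Tfrc in pattern and its 5 neighbours on each side. Other marker genes (Alb, Car3, Adipoq, Lep, Retn, Hba-a1, Hba-a2, Alas2 and Vsig4) were named after their values were seen. Alternatives were the replicate block, another prior, centring, quantile normalization, brighter genes, other probe set choices, all probe sets and leaving out each array. Some listed genes were not analysed here.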

Additional observations from a re-analysis of the deposited data

How the results depend on the processing

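None of the 8 measured members other than Tfrc passed over all genes under any of the 12 alternatives run. The number of genes called over all genes, 1 as reported, was 22 with an intensity trend and robust prior, 11 with arrays centred, 11 after quantile normalization, 7 among genes above the median, 11 with averaged probe sets, and 0 with the replicate block, with the first listed probe set, over all probe sets and without any 1 array (limma, with 1143, 1205 and 2628 at an unadjusted p under 0.05 in the first 3 of these and 677 to 1966 in the last). Tfrc differed by 0.91 with averaged probe sets, by 0.68 with the first listed one and by 1.08 to 1.70 without 1 array. Other iron genes at an unadjusted p under 0.05 numbered 16 with the trend and robust prior, and 5 to 13 without 1 array, the 5 without knock-in 2. Fth1 changed sign to 0.0127 with arrays centred and 0.0222 with averaged probe sets, and ran from -0.0819 without knock-in 2 to 0.0307 without knock-in 1. Slc11a2 ran from -0.0247 when knock-in 2 was left out to 0.0854 when knock-in 1 was. The cause of these changes was not tested. Among the 8 members other than Tfrc, 2 (Slc40a1 and Hamp) were at an unadjusted limma p under 0.05 in the reported fit. The share of all genes there was 7.39%. The same 2 were at that p in each alternative that kept all 4 arrays, joined by Hfe with averaged probe sets. Without 1 array, Hamp differed by 0.35 to 0.71 and Slc40a1 by -1.07 to -0.57. The replicate block left 0 genes called and 7 other iron genes at that p. The labels do not say that equal numbers share an animal or batch, and deviations of equal-numbered arrays correlated at -0.0309 over genes. An array left out leaves a lone array that is assumed to vary like the others.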

Other observations

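The order of the 4 arrays was compared across members after their values had been seen. From wild-type 2 through wild-type 1 and knock-in 1 to knock-in 2, values were in ascending order in the main Tfrc probe set, in the 5′ Tfrc control and in both Hamp probe sets, and in descending order in both Slc40a1 probe sets, in Ireb2 and in the second Hfe probe set. Each direction thus held 4 of the 23 member probe sets, where each is found in 4.50% of all probe sets other than controls. The ascending 4 include a control and the main Tfrc probe set, which was chosen for its difference, so the count is only a description. On main probe sets, 2 of the 9 genes were ascending, Tfrc included, and 2 descending, beside 6.12% and 3.88% of all genes. Probe sets of 1 gene read the same samples and are not replicates, and the order within a group was not set by the design. Among the 14 measured hepatocyte markers, 11 were in ascending and 0 in descending order, beside 6.12% and 3.88% of all genes tested.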
